A study of Caenorhabditis elegans with 6 samples.

Results

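The genes described here encode the Notch ligands, co-ligands and receptors of the nematode Caenorhabditis elegans, read from whole larvae in L3 lethargus and from active L3 larvae. Lethargus is the quiet phase of each larval molt, when animals stop moving and feeding. The members are the DOS-motif co-ligand genes osm-11, osm-7, dos-1, dos-2 and dos-3, the DSL ligand genes lag-2, apx-1 and dsl-1, and the receptor genes lin-12 and glp-1. They were taken by gene symbol from the annotation of the array. All 10 genes were found, of 17118 genes named on the array, and they had 13 of the 22548 probe sets tested. osm-11, dos-3 and apx-1 had 2 probe sets each.

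Both groups were wild-type N2, variety Bristol, grown at 20 °C on DA837 bacteria after arrest of the hatched larvae without food. The lethargus samples were picked at 37 hours after feeding, by absence of movement and feeding, and the L3 samples at 32 hours, by active behaviour. Each of the 3 arrays per group came from a separate pool of 200 animals, so the p-values measure the spread between pools, and age, molt phase and behaviour cannot be told apart. Whole animals were used, so fewer cells of a type and less RNA per cell cannot be told apart either.

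Notch receptors are membrane proteins that are cut after binding a ligand on a neighbouring cell, which frees an intracellular part that joins the DNA-binding protein LAG-1 to switch on target genes. In C. elegans the DSL ligands lack the DOS motif found in the Delta and Jagged ligands of other animals, and separate DOS-motif proteins such as OSM-11 act beside them as co-ligands. lin-12 is known for cell fate choices in the gonad and vulva of the larva, and glp-1 for keeping germline stem cells dividing. Notch signalling, osm-11 included, is also known to affect quiescence during molting.

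The co-ligand gene dos-2 fell in lethargus, and it was the sole member called. Of the 13 member probe sets, limma called 1 lower (adjusted p of 0.05 or less), against 0.213% of all probe sets called lower, and 0 higher, against 0.754% of all probe sets called higher. At an unadjusted p under 0.05 there were 2 lower, against 5.11% of all probe sets, and 0 higher, against 5.44%. The lethargus arrays lay below every L3 array for 2 member probe sets, 1 of dos-2 and 1 of dos-3, where 6.57% of all probe sets did so, and they lay above every L3 array for 0, against 7.81%. The other 11 overlapped between groups, and 11 of the 13 changes were smaller than 0.5 in size on the log2 scale, as were 90.6% of those of all probe sets. The median change was -0.13 over the member probe sets and 0.016 over all probe sets.

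**Figure D1:**
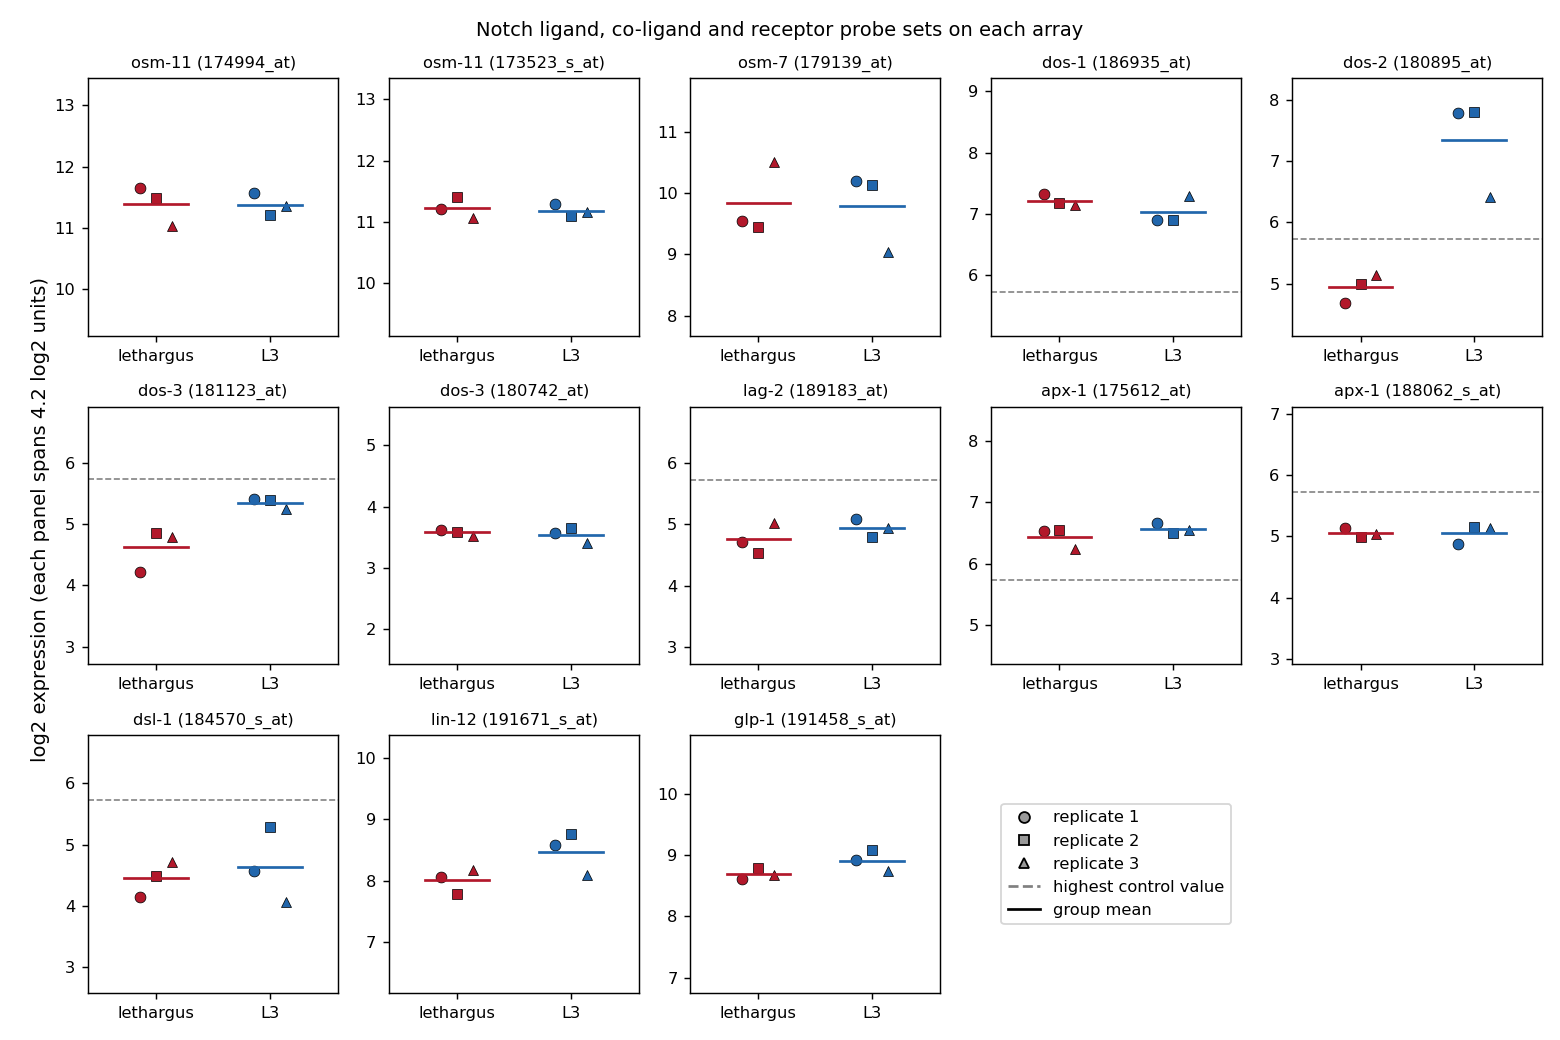
Log2 expression of each member probe set on the 3 lethargus arrays (red, left) and the 3 L3 arrays (blue, right), with replicates as symbols, group means as lines and the highest control value as a dashed line where it falls in the panel. dos-2 has all 3 lethargus arrays below the dashed line and all 3 L3 arrays above it, and L3 replicate 3 is the lowest of the L3 arrays.

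The array values are log2 probe set levels, which cannot be ranked between genes. The table holds no detection calls, so probe sets for Bacillus subtilis control transcripts served as a guide to background, and the highest of their values was 5.73. In 5 member probe sets both group means lay within the range of these controls. These were every probe set of dos-3, lag-2 and dsl-1, and the dimmer probe set of apx-1. L3 replicate 3 lay apart from the other L3 arrays over all probe sets, at 0.82 on the first principal component, against -47.7 and -40.9 for L3 replicates 1 and 2. Medians of the arrays ran from 7.09 to 7.19 in lethargus and from 7.11 to 7.16 in L3.

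dos-2 (sequence name K10G6.2), which encodes a DOS-motif protein, had log2 levels of 4.69, 5.00 and 5.14 on the lethargus arrays, against 7.79, 7.80 and 6.42 on the L3 arrays. The lowest L3 array lay 1.28 above the highest lethargus array. The group means were 4.94 ± 0.23 in lethargus and 7.33 ± 0.79 in L3 (SD, n = 3 arrays each). The change was -2.39 (SE 0.37, 95% confidence interval -3.25 to -1.53), with an adjusted p of 0.0376 by limma. All 3 lethargus values lay below the highest control of their own array, so the size of the fall is a bound. Set against the controls, the group means of dos-2 lay at least 3.67-fold apart. That bound takes no account of the spread between arrays.

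The call of dos-2 rested on every array other than L3 replicate 3. Without L3 replicate 3 the change was -2.85, with an adjusted p of 0.000301. Without L3 replicate 1 or 2 the adjusted p was 0.138 and 0.182, and without lethargus replicate 1, 2 or 3 it was 0.185, 0.151 and 0.120. The change stayed negative in all 6, between -2.85 and -2.16. In those of these 6 fits where dos-2 lost its call, 0 or 1 of all probe sets were called lower, against 48 with all arrays.

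**Figure D2:**
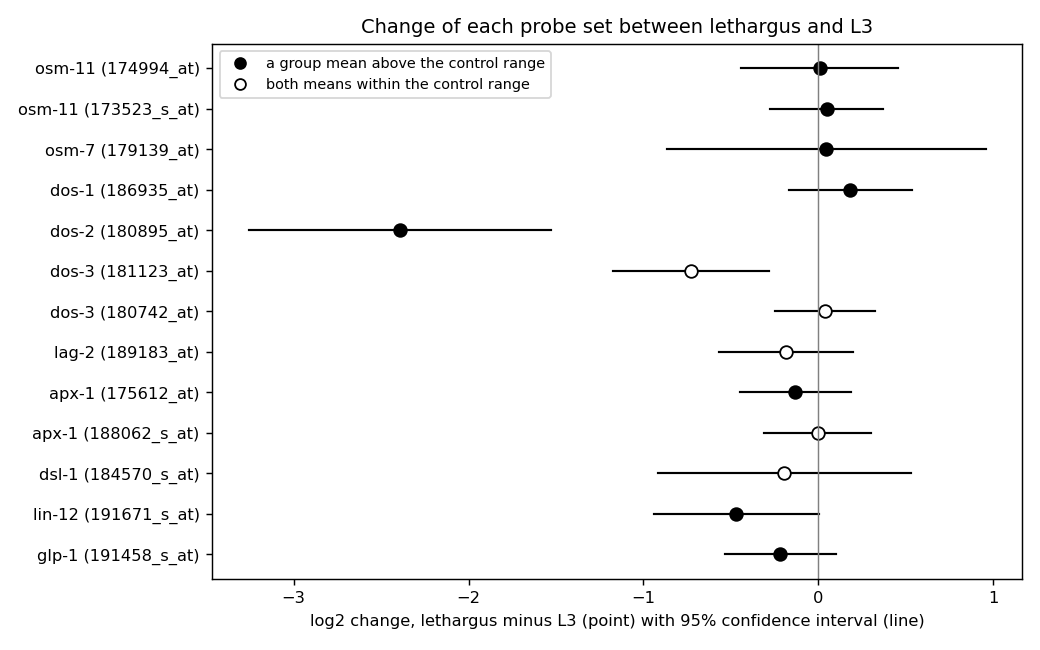
Log2 change of each member probe set, lethargus minus L3, as a point with its 95% confidence interval from limma; open points have neither group mean above the highest control value. The interval of dos-2 ends at -1.53, and every other point lies between -0.73 and 0.18.

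dos-3, which encodes a further DOS-motif protein, gave different values on its probe sets. The brighter had 4.21, 4.86 and 4.79 on the lethargus arrays, against 5.41, 5.39 and 5.25 on the L3 arrays, with no overlap between groups. Its change was -0.73 (SE 0.19, 95% confidence interval -1.17 to -0.28), which did not pass the threshold over all probe sets (adjusted p of 0.174 by limma). All of these values lay below the highest control value over all arrays, 5.73, so no fold is given. On its own array, L3 replicate 1 lay above the highest control, 5.21. The dimmer probe set had 3.62, 3.59 and 3.53 in lethargus, against 3.57, 3.65 and 3.41 in L3, a change of 0.04 with overlapping groups. With the mean of both probe sets the change of dos-3 was -0.34 (adjusted p of 0.383 by limma).

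osm-11, which acts with lin-12 in vulval development and is also needed for the normal response to osmotic stress, was not called. Its brighter probe set had 11.65, 11.49 and 11.03 on the lethargus arrays, against 11.57, 11.20 and 11.36 on the L3 arrays. The groups overlapped throughout, with a change of 0.0076 (SE 0.19) whose 95% confidence interval ran from -0.44 to 0.46. The second probe set, marked by its identifier as able to match related transcripts, had 11.21, 11.42 and 11.07 in lethargus, against 11.30, 11.10 and 11.16 in L3. Its change of 0.049 had an interval from -0.27 to 0.37, so the intervals of both probe sets of osm-11 lay within 0.5 of no change.

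osm-7, a relative of osm-11 whose mutants share its resistance to osmotic stress, varied between the arrays of each group. It had 9.55, 9.44 and 10.51 on the lethargus arrays, against 10.19, 10.12 and 9.03 on the L3 arrays. The highest of all arrays was lethargus replicate 3 and the lowest L3 replicate 3, and the ranges within a group, 1.07 in lethargus and 1.16 in L3, exceeded the change of 0.047 (SE 0.39). The 95% confidence interval of -0.86 to 0.96 leaves room for a change in either direction. Without L3 replicate 3 the change was -0.33 (adjusted p of 0.768 by limma).

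dos-1, another DOS-motif gene, had 7.32, 7.19 and 7.14 on the lethargus arrays, against 6.90, 6.91 and 7.29 on the L3 arrays. Here L3 replicate 3 lay among the lethargus arrays and L3 replicates 1 and 2 below them. The change of 0.18 (SE 0.15, 95% confidence interval -0.17 to 0.53) was not called (adjusted p of 0.833 by limma). Without L3 replicate 3 it was 0.31 (adjusted p of 0.391).

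None of the DSL ligand genes was called on any probe set. lag-2, whose product signals from the distal tip cell of the gonad to the germline stem cells, had 4.71, 4.54 and 5.03 on the lethargus arrays, against 5.09, 4.80 and 4.95 on the L3 arrays. These values overlapped between groups and lay below the highest control value, so a level of lag-2 was not told apart from background. Its change was -0.19 (95% confidence interval -0.57 to 0.20).

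apx-1, a ligand gene that acts in the early embryo and in lateral signalling between vulval precursor cells, had the sole probe set of lag-2, apx-1 and dsl-1 with means above the controls. That probe set had 6.53, 6.54 and 6.24 on the lethargus arrays, against 6.67, 6.50 and 6.54 on the L3 arrays. The groups overlapped, and the change of -0.13 (SE 0.13) had a 95% confidence interval from -0.45 to 0.18. The dimmer probe set, marked as able to match related transcripts, had 5.13, 4.99 and 5.04 in lethargus, against 4.87, 5.15 and 5.13 in L3.

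dsl-1 encodes a secreted ligand of the same lateral signal. It had 4.14, 4.49 and 4.71 on the lethargus arrays, against 4.56, 5.29 and 4.07 on the L3 arrays. The L3 arrays alone spanned 1.22, from the lowest value of all in L3 replicate 3 to the highest in L3 replicate 2. The change of -0.19 (95% confidence interval -0.92 to 0.53) was not called, and its values lay below the highest control value and on a probe set marked as able to match related transcripts.

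The receptor genes had lower means in lethargus without a call. lin-12 had 8.06, 7.78 and 8.17 on the lethargus arrays, against 8.58, 8.75 and 8.08 on the L3 arrays. L3 replicates 1 and 2 lay above every lethargus array, while L3 replicate 3 lay among them. The change was -0.47 (SE 0.20, 95% confidence interval -0.94 to 0.0017), with an unadjusted p of 0.0506 and an adjusted p of 0.477 by limma. Without L3 replicate 3 it was -0.66 with an adjusted p of 0.0855.

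glp-1 had 8.62, 8.79 and 8.68 on the lethargus arrays, against 8.91, 9.09 and 8.74 on the L3 arrays. As for lin-12, L3 replicate 3 lay within the range of the lethargus arrays and L3 replicates 1 and 2 above it. The change was -0.22 (SE 0.14, 95% confidence interval -0.54 to 0.10), with an adjusted p of 0.727 by limma. The probe sets of both receptor genes are marked as able to match related transcripts, and how far each does so was not measured. Of 10 germline marker genes, 0 were called by limma, against 0.754% of all probe sets called higher and 0.213% called lower. At an unadjusted p under 0.05 there were 2, both higher, against 5.44% of all probe sets. The median change of the 10 genes was 0.25, positive in 9 of 10. Their median level ran from 9.71 to 9.96 in lethargus and from 9.36 to 9.76 in L3. The part of germline amount in the value of glp-1 was not tested.

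L3 replicate 3 was the lowest of the L3 arrays in 7 of the 13 member probe sets, against 37.1% of all probe sets. The differences from the mean of L3 replicates 1 and 2 were -1.38 for dos-2, -1.13 for osm-7, -0.86 for dsl-1, -0.58 for lin-12, -0.26 for glp-1, and -0.15 and -0.20 for the probe sets of dos-3. The largest difference in the other direction was 0.39 for dos-1. It lay nearer to the lethargus mean than to the mean of the other L3 arrays in 8 of the 13, against 57.1% of all probe sets.

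**Figure D3:**
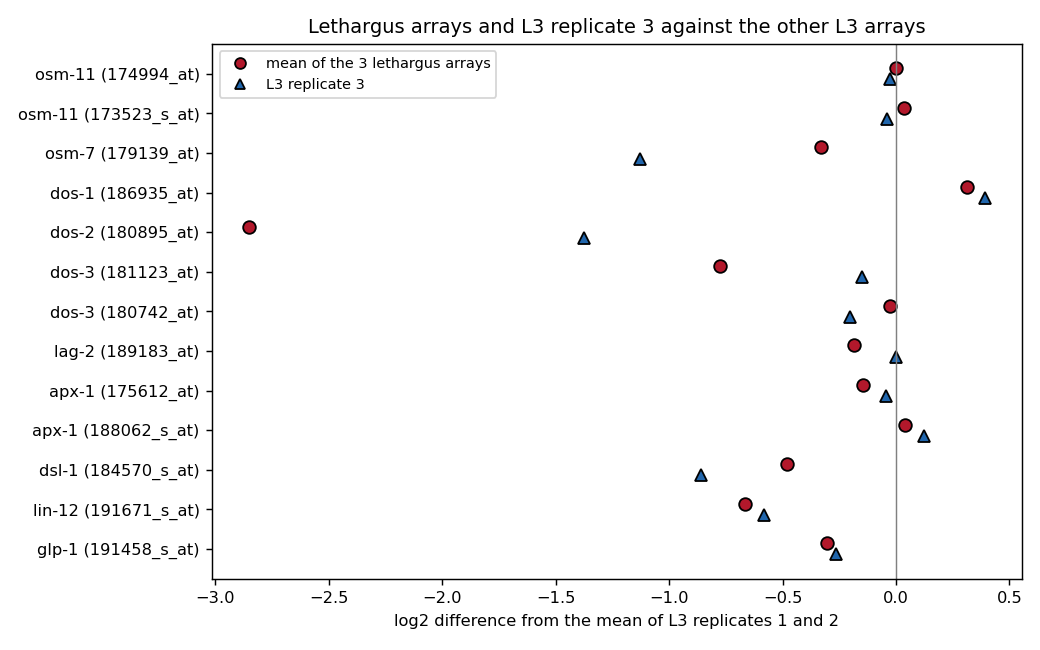
Log2 difference of the lethargus mean (red circles) and of L3 replicate 3 (blue triangles) from the mean of L3 replicates 1 and 2, for each member probe set. For dos-2 the lethargus mean lies at -2.85 and L3 replicate 3 at -1.38, while for lin-12 and glp-1 the 2 symbols lie side by side.

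The rest of the pathway was read from 5 lists with 47 genes, of which 40 were measured, each on its brightest probe set. Dimmer probe sets of these genes were not counted, and some differed in the size or sign of the change. By limma 0 of the 40 were called, against 0.754% of all probe sets called higher and 0.213% called lower. At an unadjusted p under 0.05 there was 1, higher in lethargus, against 5.44% of all probe sets higher and 5.11% lower. Changes ran from -0.38 to 0.51 with a median of -0.022, 17 positive and 23 negative, and the groups did not overlap for 3 genes, against 14.4% of all probe sets. The lowest adjusted p among them was 0.161.

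That value belonged to dsl-5, of the other DSL-family ligands, with 4.50, 4.82 and 4.71 on the lethargus arrays, against 4.10, 4.17 and 4.22 on the L3 arrays. All of its lethargus arrays lay above all of its L3 arrays, with a change of 0.51 (SE 0.13), but both means lay within the range of the controls. dsl-3, with the second lowest p of that list, had a change of 0.23 (SE 0.15, adjusted p of 0.736 by limma). The list median was 0.13 over 6 genes, and for 5 of them neither group mean exceeded the highest control.

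The genes for cutting the receptor include the ADAM protease genes sup-17 and adm-4 and the presenilin genes sel-12 and hop-1 with their partners aph-1, aph-2 and pen-2. Their list median was -0.086 over 8 genes. adm-4 had 6.71, 6.80 and 7.39 on the lethargus arrays, against 7.34, 7.27 and 7.33 on the L3 arrays, a change of -0.35 (SE 0.19) in which lethargus replicate 3 lay above all L3 arrays. imp-2, listed here because it encodes a protease related to presenilin, had a change of 0.33 (SE 0.17, adjusted p of 0.625 by limma). Whether its product cuts the receptor was not tested.

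In the nucleus, lag-1 encodes the DNA-binding protein of the pathway and sel-8 its coactivator. lag-1 had a change of 0.19 (SE 0.16) and sel-8 one of -0.32 (SE 0.25). sel-8 was lowest on lethargus replicate 3, at 5.42, while lethargus replicates 1 and 2 had 6.32 and 6.30.

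The modifiers of Notch activity had a list median of -0.019 over 13 genes. tsp-14, a tetraspanin gene, had 8.98, 9.32 and 9.38 on the lethargus arrays, against 9.84, 9.92 and 9.07 on the L3 arrays. L3 replicate 3 again lay among the lethargus arrays, and the change of -0.38 (SE 0.25) was not called. emb-5 had a change of -0.14 (SE 0.12, adjusted p of 0.838 by limma), and its dimmer probe set one of 0.050 (SE 0.18).

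Of 16 target genes listed, 11 were measured, with a median change of -0.031. Not measured were hlh-25, hlh-27, hlh-28, hlh-29 and lst-3. For hlh-26 and egl-43 both group means lay within the range of the controls. sygl-1, which the GLP-1 receptor switches on in germline stem cells, had 8.89, 8.90 and 8.85 on the lethargus arrays, against 9.28, 9.12 and 9.01 on the L3 arrays. Its groups did not overlap, and its change of -0.26 (SE 0.12, 95% confidence interval -0.55 to 0.026) was not called (adjusted p of 0.552 by limma). lip-1, a phosphatase gene switched on by LIN-12 in vulval precursor cells, had a change of -0.25 (SE 0.20).

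**Figure D4:**
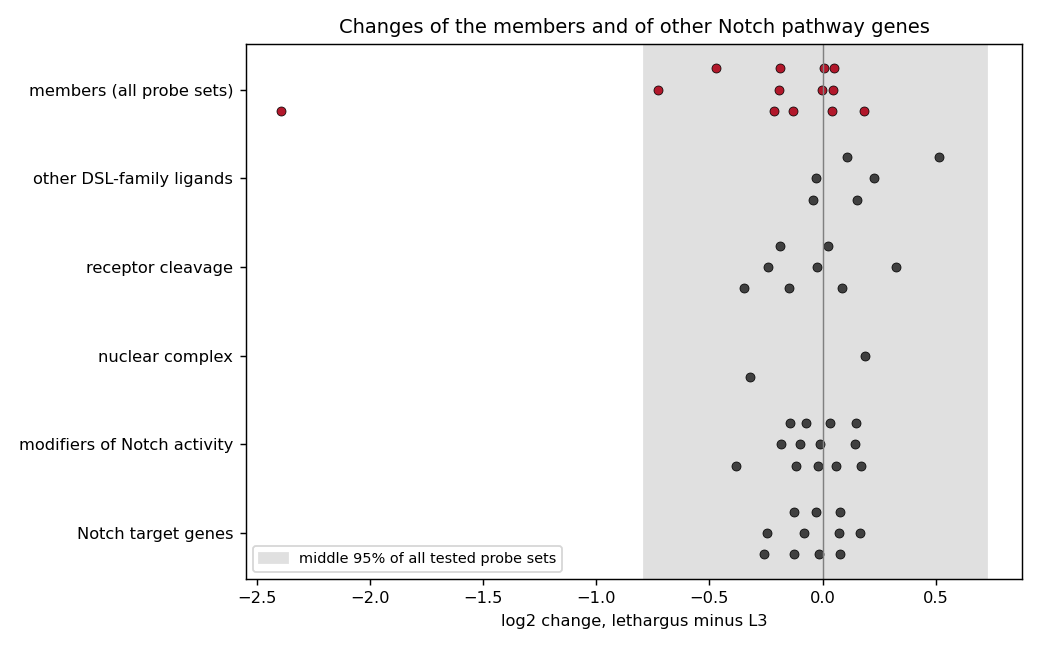
Log2 change, lethargus minus L3, of the 13 member probe sets (red) and of the brightest probe set of 40 other pathway genes in 5 lists (dark), with the middle 95% of all tested probe sets shaded from -0.79 to 0.73. dos-2, at -2.39, is the sole point outside the shaded range.

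Markers of tissues in which these genes are known to act were set beside them. Over all probe sets, limma called 0.754% higher and 0.213% lower, and 5.44% were higher and 5.11% lower at an unadjusted p under 0.05. Of 8 genes for the epidermis and seam, 0 were called by limma, and at an unadjusted p under 0.05 there were 1 higher and 2 lower. Their median change was 0.013 and their median level ran from 7.57 to 7.75 in lethargus and from 7.59 to 8.48 in L3. Of their changes 5 were positive and 3 negative. The negative ones were -1.29 for che-14, -0.72 for lin-26 and -0.67 for ceh-16. Both group means of ceh-16 lay within the range of the controls. The positive ones were 0.45 for elt-1, 0.41 for elt-3, 0.10 for ajm-1, 0.023 for elt-6 and 0.0029 for nhr-25. None was called, and che-14 was chosen for its array values after these were seen. che-14 had 6.60, 6.84 and 7.29 on the lethargus arrays, against 8.42, 8.60 and 7.58 on the L3 arrays, with no overlap and with L3 replicate 3 the lowest of the L3 arrays, as for dos-2 (adjusted p of 0.125 by limma). Of 8 vulval genes 0 were called by limma, with 1 lower at an unadjusted p under 0.05. Their median change was -0.033, with 3 positive and 5 negative. Their median level ran from 7.16 to 7.38 in lethargus and from 7.40 to 7.61 in L3. Of 6 somatic gonad genes 0 were called, with 0 at an unadjusted p under 0.05, and for 4 neither group mean exceeded the highest control. The part of these tissues in the change of dos-2 was not tested. Lists for neurons, intestine, body wall muscle and sperm had 0 genes called by limma and 0 at an unadjusted p under 0.05. The median level of 5 sperm genes ran from 5.61 to 6.37 in lethargus and from 5.25 to 6.56 in L3, with the highest value on L3 replicate 3.

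The genes whose pattern was most like that of dos-2 were ttr-12, lips-9, F52E1.5, C54F6.3 and F36D1.8. They were the 5 with the smallest root mean square difference from dos-2 over the 6 array values, each gene centred on its own mean, among 10683 genes with a mean above the controls. The difference was 0.163 for ttr-12, a transthyretin-like gene, 0.200 for lips-9, a lipase-related gene, and 0.216 to 0.222 for the other 3. ttr-12 had 5.47, 5.76 and 5.85 on the lethargus arrays, against 8.28, 8.12 and 7.06 on the L3 arrays, so that it too had L3 replicate 3 between the groups. Since the genes were chosen for their likeness to dos-2, their changes of -2.13 to -2.37 are a description and not a test.

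**Figure D5:**
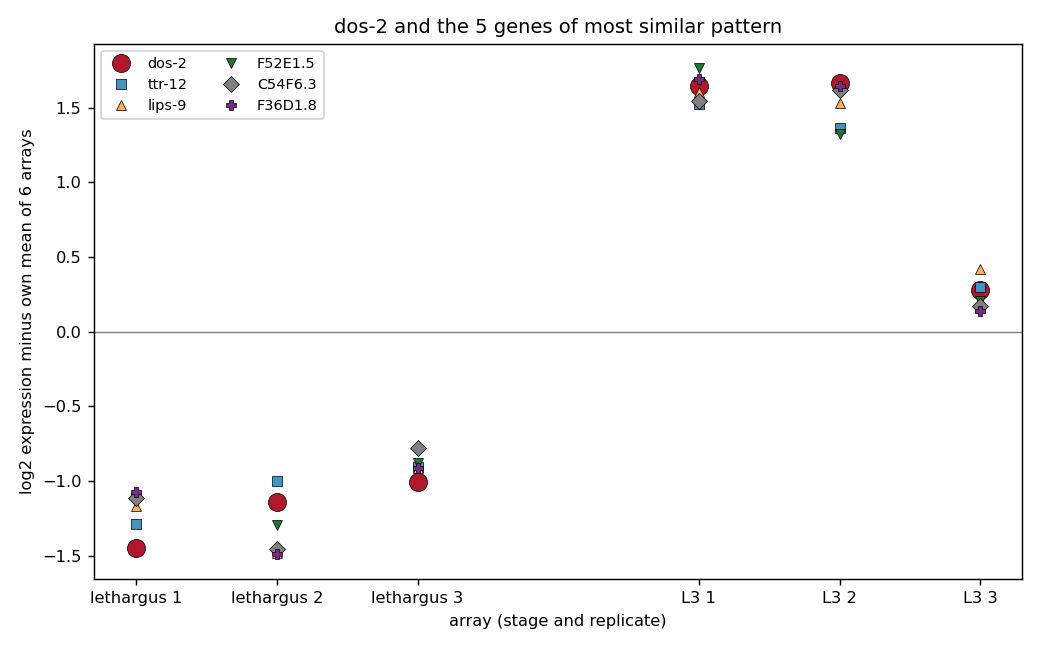
Log2 expression of dos-2 (large red circles) and of the 5 genes of most similar pattern on each array, each gene centred on its own mean over 6 arrays. All 6 genes are below 0 on the lethargus arrays and above 0 on the L3 arrays, with L3 replicate 3 closest to 0.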

How the data were processed

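RNA from whole larvae was measured on 6 Affymetrix C. elegans Genome Arrays, after amplification with the Nugen Ovation system, per the labels' protocols. The deposited table holds log2 expression values that the authors made with RMA, per the submitters' processing notes. For RMA's version and background settings, the sources used here give nothing. It held 22625 probe sets, of which 77 controls were left out. The annotation named 1 gene for 20766 probe sets. No probe or gene sequence and no coordinates were used here.

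Lethargus was compared with L3 in limma 3.58.1 (R 4.3.3), with lmFit and eBayes and no term besides group, two-sided, on the values as deposited. Benjamini-Hochberg adjustment ran over 22548 probe sets, and 0.05 was the threshold. The design text names R/maanova, which was not run. The fit was tested on simulated data. It called 72% of 100 probe sets given a change of 1.5 on the log2 scale, and 96% of 100 given 3. It also called 9 probe sets that were given no change. The number of arrays limits the precision.

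For a fold bound, each value of the dimmer group was raised to the highest control on its array if it lay below that control, and these values were averaged and set against the brighter group's mean. Named pathway genes are the called genes of a list with the largest changes, or, in a list without calls, the 2 with the lowest p. The members, lists and tests were chosen with earlier results of these data known. No pair of arrays held the same values.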

Additional observations from a re-analysis of the deposited data

How the results depend on the processing

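dos-2 kept its call with a second quantile normalization, a common median, a variance trend with robust fitting and array weights. Its changes there were -2.57 to -2.39, with adjusted p-values of 0.0121 to 0.0386 by limma. It was also called with dim probe sets left out, a filter on the mean over all 6 arrays. dos-2 passed that filter only through its L3 arrays, so this setting is no support for the call. The count of member probe sets called lower was 0 to 1 with an array left out, and that called higher was 0 under every alternative run. No other member was called under any alternative run. Over all probe sets, 170 were called higher and 48 lower, and with an array left out the counts ran from 75 to 573 higher and from 0 to 563 lower, the highest of both without L3 replicate 3. Array weights gave 262 higher and 231 lower, and the variance trend gave 77 lower. Replicate numbers are shared between the groups, but deviations of same-numbered arrays correlated at 0.26, -0.24 and -0.29, so they were not taken as pairs. With the replicate block 56 probe sets were called higher, 3 lower and 0 of the members lower, with an adjusted p of 0.165 for dos-2.

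Changes near 0 turned sign. That of the brighter osm-11 probe set was -0.0065 with a common median, and that of osm-7 was -0.20 with array weights. With an array left out the changes ran from -0.12 to 0.19 and from -0.042 to 0.13 for osm-11, -0.33 to 0.25 for osm-7, -0.028 to 0.093 for the dimmer dos-3 probe set, -0.092 to 0.048 for the dimmer apx-1 probe set and -0.48 to 0.13 for dsl-1. The causes were not tested. Probe sets near background limit what can be said of dos-3, lag-2 and dsl-1.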
